A study of Mus musculus with 24 samples.

Results

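Liver has a small set of long noncoding RNAs (lncRNAs, transcripts without a long open reading frame) that the study found in no other tissue it measured. The lncRNAs described here were the entries of the study's liver-specific lncRNA list, without the symbols that start with Mup (major urinary protein loci). The list held 48 probes, of which 5 carried a Mup symbol, so 43 probes with 42 symbols remained, out of 60804 transcript probes on the array. They were chosen by the study on measured values of the tissue arrays: flags above background on all 3 liver arrays, absence in the other tissues, at least a 5-fold excess and a p of at most 0.05. High signals in liver and low signals in brain, heart, kidney and testis are therefore given by the choice and are described without a test. The F9, GC-1 and GC-2 arrays took no part in it.

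The 24 arrays were Arraystar mouse lncRNA arrays hybridised with 1 Cy3-labelled sample each, 3 for every group. The 5 tissues (brain, heart, kidney, liver and testis) came from 8-week-old male ICR mice, with no treatment named in the labels. The 3 cell lines were F9, embryonal carcinoma cells from a testicular tumour, and the immortalised germ cell-derived lines GC-1 and GC-2, which resemble spermatogonia to early spermatocytes and spermatocytes. Each line is 1 culture lineage, so its arrays describe that line and not germ cells at large.

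Hepatocytes make most plasma proteins, lipoproteins and the enzymes that clear drugs, steroids and bile acids, and they make up most of the liver's mass. Sinusoidal endothelial cells and resident immune cells line the blood spaces between them. Many liver genes are controlled by a few factors that act together, among them HNF1, HNF4, C/EBP and FOXA proteins. Many annotated lncRNAs lie inside, beside or antisense to protein-coding genes and carry the symbol of that host gene.

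Levels are log2 processed signals, each array scaled to the 75th percentile of the 13551 probes that were well above background on all 24 arrays. Before scaling, this percentile was 854 to 1301 on the liver arrays and 1409 to 4800 on the other 21. Scaling therefore raised liver levels relative to every other group. All folds, also those given as "at least", rest on these probes being alike between groups, which was not tested. A probe counted as detected in a group when the scanner software's flag "well above background" was set on all 3 arrays. Where it was not set, the signal only bounds the level, and folds against such a group are given as "at least", computed against the lowest flagged signal of each array. The brightness of a probe depends on its sequence, so the order of the 43 probes by signal is no order of RNA amounts.

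Between 30.0% and 61.5% of all probes were well above background per array, the lowest shares being those of liver (30.0% to 35.1%). Liver replicate 1 stood apart in its background: the 95th percentile of its negative controls was 13.6, against 2.97 to 4.97 on the other 23 arrays. Replicate 1 of GC-2 correlated less with replicates 2 and 3 (r = 0.969 for both, over the 13551 probes) than those did with each other (r = 0.998). The same order held in F9, GC-1 and testis (0.983 to 0.987 against 0.996 to 0.997), but not in heart. In every group, replicate 1 was on slide 1 and replicates 2 and 3 shared another slide. The part of the slides was not tested. Liver replicates 1 and 2 correlated at r = 0.969, and replicate 3 with each at r = 0.976. Pairs within the other tissues had r from 0.977 to 0.997. The liver label could not be checked against marker genes: of the 38 markers listed, the names of 10 occur in the tables that name probes. Of these, 6 are themselves among the 43, and the other 4 are named only in lists the study chose for their signal in brain, testis or F9.

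RefSeq (assembly GRCm38.p6) held the symbols of 31 of the 43 probes, 1 of them (1500017E21Rik, now Hectd2os) as a synonym. Of the 31 probes, 17 had protein-coding hosts, 7 lncRNA genes, 3 pseudogenes and 4 transcribed pseudogenes, each Cd1d2 probe being counted. The hosts lay on 15 chromosomes, with 5 probes each on chromosomes 3 and 4. A probe that bears a host's symbol measured a transcript of that locus that the array maker classed as noncoding. The paper classed its lncRNAs by position and direction against nearby mRNAs. Those classes were not used here, so whether a member runs sense or antisense to its host is not stated. Signal from the host's mRNA or from a near-identical paralog cannot be told apart from that of the lncRNA.

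All 43 lncRNAs were well above background on the 3 liver arrays, with mean levels from 6.19 to 13.97 and a median of 8.40 on the log2 scale. Unscaled, their signals in liver ran from 33.2 to 8083, from 18.6 to 8776 and from 32.0 to 7040 on replicates 1 to 3. No member spot was saturated or marked as an outlier. On every one of the 43, the lowest liver array lay above the highest of the 12 other tissue arrays and above the highest of the 9 line arrays. The first held for 19.7% and the second for 44.0% of all probes, and both together for 16.4%. Within slide 1, liver exceeded the 7 other arrays for 43 of 43, and within slide 2 the 6 other arrays for 43 of 43, beside 33.6% and 29.2% of all probes. The choice of members used these tissue arrays.

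**Figure D1:**
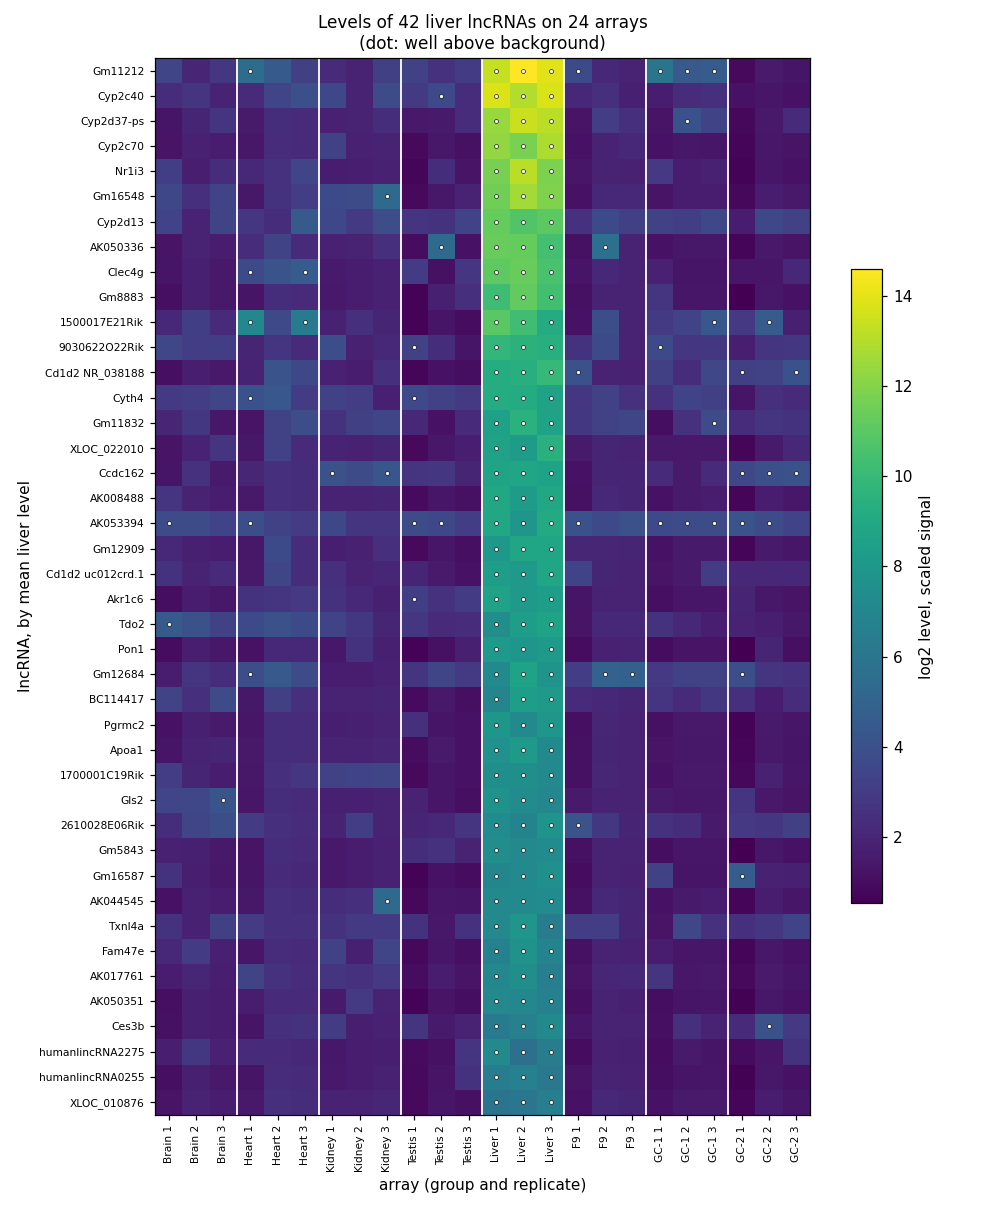
Log2 level (colour) of each of the 42 lncRNAs reported by name (rows, by mean liver level) on each of the 24 arrays (columns, by group and replicate). White dots mark arrays on which the probe was well above background: all 3 liver columns are dotted throughout, the other 21 columns hold 50 dots in all.

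The loci of drug, steroid and bile acid metabolism held 7 members and the brightest signals after Gm11212. Their liver means ran from 6.72 to 13.55 (median 12.21), and the lower bound of their excess over the highest other tissue had a median of 280-fold, beside 18.2-fold over all 43. Cyp2c40 (ENSMUST00000162434), a cytochrome P450 locus of fatty acid and drug oxidation, reached 13.86, 12.99 and 13.81 on the liver arrays. The highest other array was a heart array at 3.95 that was not well above background. Testis replicate 2, at 3.66, was the 1 array outside liver with the flag, and liver exceeded every other tissue by at least 708-fold.

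Cyp2c70 (ENSMUST00000171604), the locus of the P450 that makes muricholic acids from bile acids in mice, reached 12.28, 11.76 and 12.86. None of the other 21 arrays detected it, and the liver level was at least 298-fold that of any other tissue. The 2 Cyp2c hosts lie on chromosome 19 within the same gene cluster. Cyp2d37-ps (NR_033515), a transcribed pseudogene on chromosome 15 between Cyp2d34 and Cyp2d40, stood at 12.40, 13.45 and 13.12. It was flagged on 1 GC-1 array and at least 480-fold higher in liver than in the other tissues. Cyp2d13 (NR_003552), a transcribed pseudogene between the same neighbours, stood at 11.26, 10.76 and 11.04, at least 118-fold above the other tissues, and was flagged nowhere else.

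Nr1i3 (ENSMUST00000152865), the locus of the nuclear receptor CAR that switches on drug-clearing enzymes, reached 11.71, 13.11 and 11.81, replicate 2 standing above the others. Its nearest gene on 1 side is Apoa2, which encodes a lipoprotein component. No array outside liver detected it, and the excess was at least 280-fold. Akr1c6, an aldo-keto reductase locus of steroid metabolism, had a mean of 8.40 ± 0.26 (SD, n = 3), at least 19.9-fold over the other tissues, with a flag on 1 testis array. Ces3b, a carboxylesterase locus, was dim in liver at 6.29, 6.64 and 7.24 and at least 6.24-fold above the other tissues. It was flagged on 1 GC-2 array.

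Promoter windows in RefSeq (250 bases before to 50 after a transcript's start) were given for 18 of the hosts, 47 windows in all. The letters searched, on both strands, were the HNF1 motif (GTTAAT, any letter, ATT), CAAAGTCCA for HNF4 and TTNNGCAA for C/EBP. CAAAGTCCA stood in windows of 2 of the 18 hosts, Cyp2c40 and Cyp2c70, against 0.555% of all 27025 genes with a window. Of the 13 Cyp2c genes with a window, 6 held these letters, so the pair shares them with relatives that are not members. TTNNGCAA stood in windows of 4 of the 18 (9030622O22Rik, Cyp2c40, Gm12909 and Pon1), against 12.2% of genes, and the HNF1 letters in none, against 0.470%. By single windows the shares over all 32851 were 0.475%, 10.8% and 0.399%. Of the 26 windows of 9030622O22Rik, most overlap one another and share their matches. The 150 bases before the start of the Cyp2c pair and of Pon1 are shown, since these hosts hold the letters and have 1 window each. All 3 are on the minus strand of GRCm38.p6, written 5′ to 3′, with the HNF4 letters of the Cyp2c pair and the C/EBP letters of Pon1 in capitals. The windows are chr19:39812815-39812964, chr19:40187287-40187436 and chr6:5193947-5194096.
Cyp2c40: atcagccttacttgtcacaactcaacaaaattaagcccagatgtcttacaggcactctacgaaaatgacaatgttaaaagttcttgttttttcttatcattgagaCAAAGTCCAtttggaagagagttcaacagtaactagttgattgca
Cyp2c70: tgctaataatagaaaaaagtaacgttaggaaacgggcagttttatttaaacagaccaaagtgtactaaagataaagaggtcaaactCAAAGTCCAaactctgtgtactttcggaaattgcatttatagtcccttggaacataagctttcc
Pon1: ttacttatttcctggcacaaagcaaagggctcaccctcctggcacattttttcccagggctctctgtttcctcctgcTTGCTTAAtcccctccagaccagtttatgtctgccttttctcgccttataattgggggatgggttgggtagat
A match describes the letters of a window and not a bound site, and these are the hosts' promoters, which need not be those of the lncRNAs.

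Lipoprotein and amino acid loci gave 4 members of middling to low signal in liver. Tdo2, the locus of the enzyme that opens the tryptophan ring, had liver levels of 7.48, 8.41 and 8.69. It was flagged on brain replicate 1 (4.53) and was at least 16.4-fold higher in liver than in any other tissue. Pon1, the locus of paraoxonase carried on high-density lipoprotein, stood at 8.15, 7.92 and 8.14 and had no flag outside liver. Apoa1, which encodes the main protein of high-density lipoprotein, stood at 7.66, 8.14 and 7.22, also with no flag elsewhere. Gls2, the liver-type glutaminase locus, was flagged on brain replicate 3 (4.19) and stood at 7.75, 7.32 and 7.05 in liver. Liver was at least 9.78-fold above every other tissue and at least 11.3-fold above brain.

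Loci of sinusoidal and immune cells gave 5 members. In whole tissue, fewer cells of a type and less RNA per cell cannot be told apart. Clec4g (ENSMUST00000159612), the locus of a lectin of liver sinusoidal endothelium, reached 11.12, 11.31 and 10.55 in liver. Heart was the nearest other tissue, with 3.69 and 4.55 on the flagged replicates 1 and 3 and 4.17 on replicate 2, and liver was at least 109-fold higher. The other 18 arrays did not detect it.

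The Cd1d2 locus, a transcribed pseudogene here beside the lipid-antigen presenter Cd1d1, had 2 probes. The probe of NR_038188 stood at 9.25, 9.34 and 9.92 in liver and that of uc012crd.1 at 8.35, 8.09 and 8.80, so both were highest on replicate 3. Neither was flagged in another tissue. In the lines the first was flagged on 1 F9 array and 2 GC-2 arrays (3.19 and 4.09), the second on none. Cyth4, a cytohesin locus of blood cells, had a mean of 9.01 ± 0.34 (SD, n = 3) in liver, with a flag on 1 heart and 1 testis array.

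The other named hosts were Ccdc162, Pgrmc2, Txnl4a and Fam47e. Ccdc162 (ENSMUST00000160002) had the closest liver arrays of the 43, at 8.74, 8.77 and 8.69. Kidney was its nearest tissue, flagged on replicates 1 and 3 (4.0 and 4.30) and not on replicate 2 (3.82), and liver was at least 25.1-fold higher. Pgrmc2, a membrane heme-binding protein locus, had a liver mean of 7.73, Txnl4a, a spliceosome component, 7.15, and Fam47e 7.11. None of the last 3 was detected on an array outside liver.

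**Figure D2:**
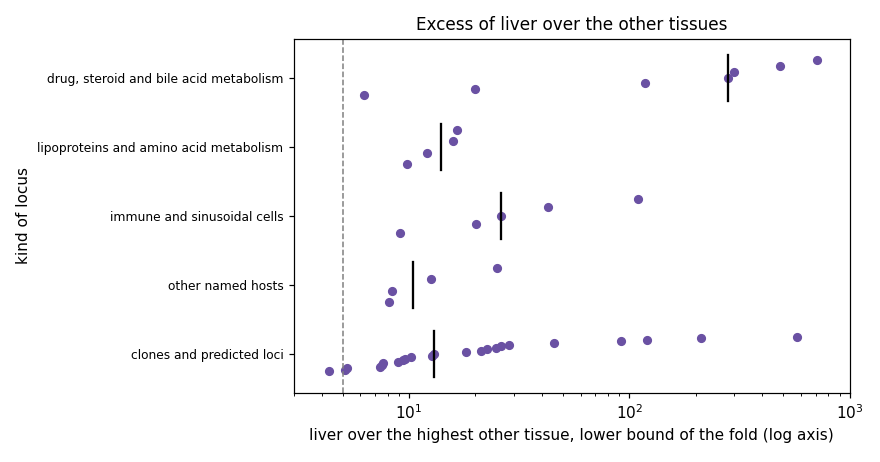
Lower bound of the fold of liver over the highest other tissue (log axis) for each of the 43 lncRNAs, by kind of locus. Black bars are medians (280 for the drug, steroid and bile acid loci, 12.9 for clones and predicted loci), and the dashed line marks the 5-fold limit that the study set on its own values.

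Clones and predicted loci made up the remaining 23 members. Gm11212 (ENSMUST00000118337) was the brightest of the 43, at 13.37, 14.59 and 13.96 on the liver arrays. It is an orosomucoid pseudogene (synonym Orm-ps) on chromosome 4 between Orm1 and Orm3, genes for an acute-phase plasma protein of hepatocytes, and its probe may share signal with them. Heart replicate 1 (5.51) was the 1 other tissue array with a flag, and liver was at least 575-fold higher. Gm16548 (NR_037987), a lncRNA gene on chromosome 1, stood at 11.54, 12.66 and 11.85, with 1 flag in kidney (replicate 3, 5.34) and an excess of at least 211-fold.

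AK050336 (uc009nzu.1) stood at 11.30, 11.29 and 10.40 in liver and was flagged on testis replicate 2 and F9 replicate 2. Gm8883 (NR_027659), a lncRNA gene on chromosome 1, stood at 10.23, 11.24 and 10.36 and was flagged nowhere else. 1500017E21Rik (ENSMUST00000129953) had the widest spread in liver, at 10.98, 10.26 and 9.20 (SD 0.89). It also had the highest level of any member outside liver: 7.11 and 6.34 on heart replicates 1 and 3, against 3.62 on replicate 2, which was not flagged. Liver was at least 18.2-fold above heart, and no other tissue detected it.

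9030622O22Rik, a lncRNA gene next to Foxa2, which encodes a factor that opens liver genes, stood at 9.81, 9.57 and 9.39. It was flagged on 1 testis and 1 GC-1 array. Gm12909, whose neighbour is Mup3, had a liver mean of 8.58 ± 0.50 (SD, n = 3) and no flag elsewhere. AK053394 stood at 8.98, 7.83 and 9.10 in liver and was the member most often flagged elsewhere, on 4 other tissue arrays (2 of testis, 1 of brain and 1 of heart, at 3.58 to 3.90). Liver exceeded the highest of these tissues by at least 21.1-fold.

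The 5 dimmest members in liver were Ces3b, AK050351, humanlincRNA2275, humanlincRNA0255 and XLOC_010876. AK050351 stood at 7.15, 7.05 and 6.70 in liver, humanlincRNA2275 at 7.23, 5.70 and 6.46, and humanlincRNA0255 at 6.47, 6.69 and 6.17. XLOC_010876 was the lowest, at 5.93, 6.07 and 6.56, and the 1 member whose bound fell short of 5 (at least 4.30-fold). These 4 were detected on no array outside liver, and their bounds were set by the detection limits of the other arrays. In liver itself the lowest flagged level was 4.90 to 5.54.

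The other clones and predicted loci lay between these, with liver means from 7.01 to 8.91: Gm11832, XLOC_022010, AK008488, Gm12684, BC114417, 1700001C19Rik, 2610028E06Rik, Gm5843, Gm16587, AK044545 and AK017761. Gm12684 and Gm5843 are pseudogenes, the latter between the carbonic anhydrase genes Car13 and Car1. Gm12684, at 7.21, 8.68 and 7.80 in liver, was flagged on 1 heart array, and AK044545, at 7.13, 7.25 and 7.32 in liver, on 1 kidney array (replicate 3). Over the whole set the liver arrays lay within 2-fold of one another for 28 of 43. The SD over the liver arrays had a median of 0.48 for the members and 0.35 for all 16277 probes detected in liver.

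**Figure D3:**
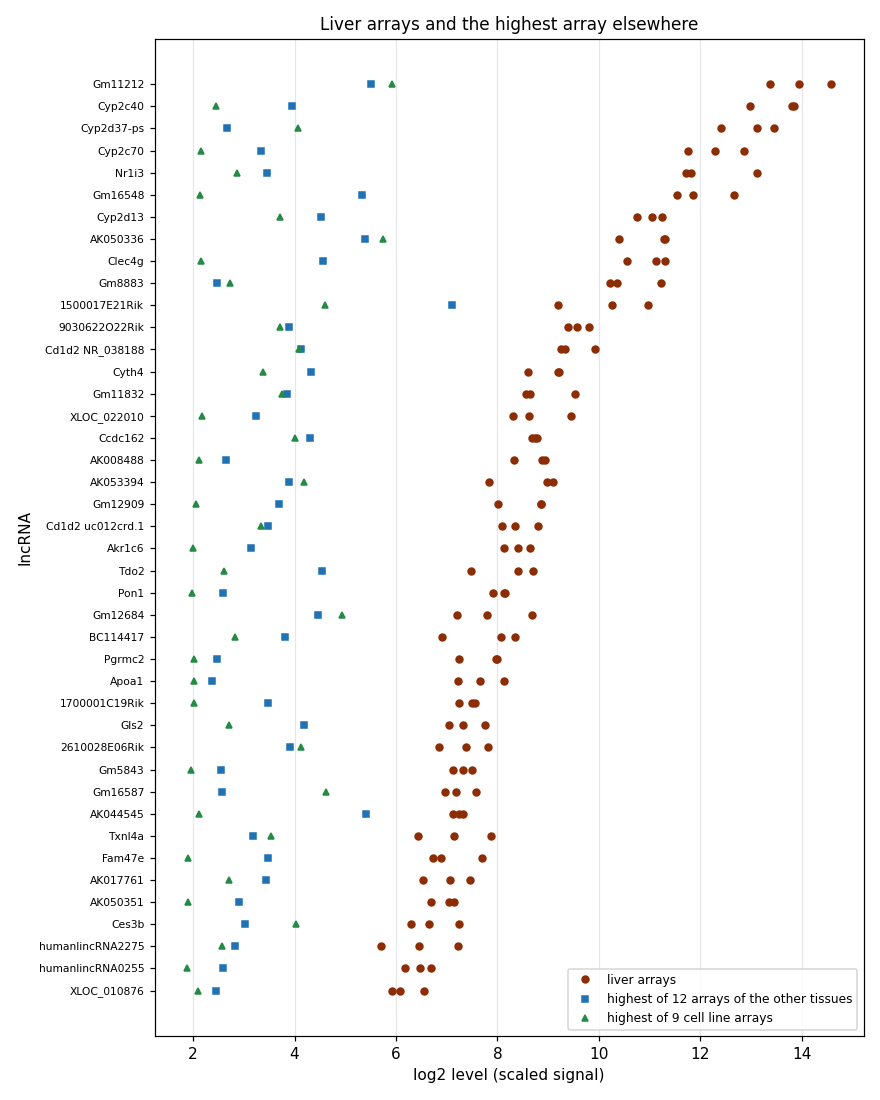
Log2 levels of the 42 lncRNAs reported by name on the 3 liver arrays (circles), beside the highest of the 12 arrays of the other tissues (squares) and the highest of the 9 line arrays (triangles). The gap between liver and the squares is narrowest on the log2 scale for AK044545 and 1500017E21Rik among those with a flagged array elsewhere.

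Taking the other tissues together, 28 of 43 lncRNAs were well above background on none of their 12 arrays, 10 on 1 array, 4 on 2 and 1 (AK053394) on 4. Heart and testis arrays flagged 6 members each at least once, and brain and kidney 3 each. For all probes these shares were 51.3% in heart, 63.9% in testis, 57.4% in brain and 48.8% in kidney. Among the tissues with at least 1 flagged array for a member, the one with the highest mean was heart for 5 members, testis for 4, brain for 3 and kidney for 3. With every unflagged array set to its limit, 42 of 43 exceeded each other tissue at least 5-fold and 9 at least 100-fold. These bounds held for 1.46% and 0.299% of all probes. With normexp background correction 22 members passed 5-fold, and without liver replicate 1, 41 did. The lowest bounds were 4.30, 5.14 and 5.20, those of XLOC_010876, humanlincRNA0255 and humanlincRNA2275. Of all 305 probes of any kind detected in liver and in no other tissue, 289 had a measured mean at least 5-fold above the others, and the 43 were part of these. The list was cut on the authors' own normalisation, so these are not its threshold values.

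Flags outside liver were unevenly spread over slides. On slide 1, which held replicate 1 of all groups, 26 of 301 readings of members outside liver were well above background (8.64%). On slide 2 the number was 7 of 258 (2.71%) and on slide 3 it was 18 of 344 (5.23%). Over all probes the shares on the same arrays were 49.95%, 50.6% and 42.7%. The part of the slides in single flags was not tested.

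In the cell lines, 3 of 43 liver lncRNAs were detected: Gm11212 and AK053394 in GC-1, Ccdc162 in GC-2, and none in F9. The lowest flagged levels were 3.29, 4.09 and 4.03 on F9 replicates 1 to 3. They were 3.26, 3.56 and 3.57 in GC-1 and 2.79, 3.62 and 3.42 in GC-2. Detection in 1 line and not in another is therefore no comparison of their levels. Of all probes, 40.9% were detected in GC-1, the same share in GC-2, 36.7% in F9, and 46.4% in at least 1 line. Among the 305 probes of any kind detected in liver and in no other tissue, 12.8% were detected in at least 1 line (5.57% in F9, 7.87% for GC-1, 6.89% for GC-2). The members are part of these 305, and the shares were not compared by a test. Of the study's heart list, 17 of 104 lncRNAs (16.3%) were detected in at least 1 line, and of its kidney list 16 of 102 (15.7%), beside 3 of 43 (6.98%) here.

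Another 11 members were flagged on 1 or 2 arrays of a line without being detected on all 3, and 29 were flagged on no line array. Gm12684 was flagged on F9 replicates 2 and 3 (4.93 and 4.82) and GC-2 replicate 1 (3.91). Without F9 replicate 1 (3.06), it would count as detected in F9. In GC-2, leaving out replicate 2 added the Cd1d2 probe of NR_038188 to Ccdc162, and leaving out replicate 3 added AK053394. Of the other members among these 11, 1500017E21Rik was flagged on 1 GC-1 array and 1 GC-2 array. The rest had a flag on 1 line array. Among them were Gm11832 on GC-1 replicate 3 (3.74), 2610028E06Rik on F9 replicate 1 (4.14) and Gm16587 on GC-2 replicate 1 (4.62). On the scaled levels, all 43 were at least 5-fold higher in liver than in each line (3.79% of all probes). The lowest bounds were those of XLOC_010876 (5.23-fold) and humanlincRNA0255 (6.24-fold), and the highest that of Cyp2c40 (860-fold). Unscaled, XLOC_010876 read 33.2, 24.1 and 41.9 in liver, beside lowest flagged signals of 13.7, 16.2 and 14.9 in F9. With normexp, 29 members were at least 5-fold higher in liver than in each line.

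**Figure D4:**
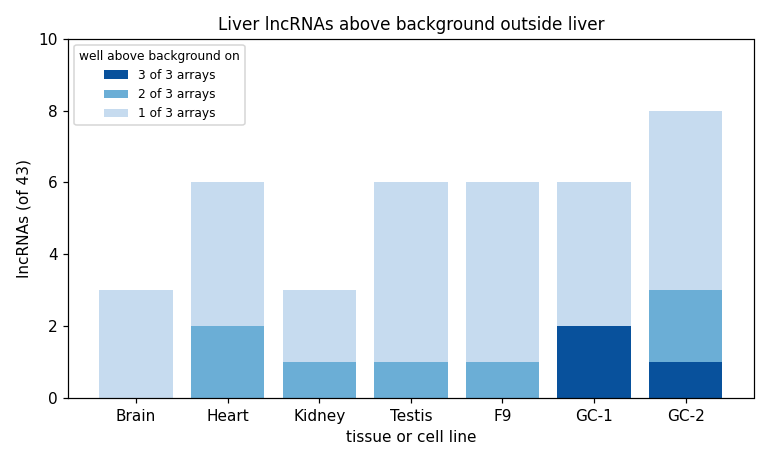
Number of the 43 lncRNAs (vertical axis) well above background on 1, 2 or all 3 arrays of each tissue other than liver and of each cell line. Only GC-1 (2 lncRNAs) and GC-2 (1) have members above background on all 3 arrays, and GC-2 has the most with at least 1 flagged array (8).

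The lines were compared with each other by limma over all 60804 probes, with Benjamini-Hochberg adjustment. A member was called when the adjusted p was at most 0.05 and the higher line had detected it. Between F9 and GC-1, 1 of 43 was called, beside 18.1% of all probes. Between F9 and GC-2, 1 of 43 was called, beside 17.6%, and between GC-1 and GC-2, 2 of 43, beside 7.48%. The median log2 difference of the members lay close to that of all probes: 0.29 beside 0.28 (F9 minus GC-1), 0.48 beside 0.47 (F9 minus GC-2) and 0.19 beside 0.19 (GC-1 minus GC-2). Over the 28191 probes detected in at least 1 line, the medians were -0.02, 0.01 and 0.07. The medians of all probes are thus not those of detected probes. The 40 members detected in no line could not be called, and their differences are between signals near background. That both called lncRNAs, Gm11212 and Ccdc162, are among the 3 that a line detected follows from the rule for calling.

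Gm11212, the orosomucoid pseudogene, rose in GC-1. Its levels were 5.91, 4.43 and 4.65 in GC-1, 3.67, 2.10 and 1.94 in F9, of which the first was well above background, and 0.88, 1.54 and 1.34 in GC-2, none of them flagged. Every GC-1 array lay above every F9 and GC-2 array. GC-1 minus GC-2 was 3.75 on the log2 scale (SE 0.52, limma, adjusted p = 0.00144), a direction called for 4.21% of all probes. With unflagged arrays at their limits, GC-1 was at least 3.30-fold above GC-2, a bound that was not itself tested. Against F9 the difference F9 minus GC-1 was -2.43 on the log2 scale (SE 0.52, limma, adjusted p = 0.00740), or at least 2.10-fold with unflagged arrays at their limits, and 9.99% of all probes were called higher in GC-1 than in F9. GC-1 remained 502-fold below liver, a measured fold since all 3 arrays of both were flagged.

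Ccdc162 rose in GC-2. Its levels there were 3.61, 3.96 and 4.01, against 1.21, 2.0 and 1.99 in F9 and 2.22, 1.53 and 2.29 in GC-1, no array of which was well above background. Every GC-2 array lay above every F9 and GC-1 array, while the F9 and GC-1 arrays overlapped. Because F9 and GC-1 lay under their detection limits, GC-2 can only be placed at least 1.04-fold above F9 and at least 1.31-fold above GC-1. The measured log2 difference F9 minus GC-2 was -2.12 (SE 0.31, limma, adjusted p = 0.000814). GC-1 minus GC-2 was -1.84 (SE 0.31, limma, adjusted p = 0.00450). The test was on these differences and not on the bounds. Of all probes, 9.17% were called higher in GC-2 than in F9 and 3.27% higher in GC-2 than in GC-1. These GC-2 levels overlapped those of the kidney arrays (3.82 to 4.30), and liver was 29.3-fold above GC-2.

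Within slide 3, which held 2 arrays of each line, the same 4 differences were called, with log2 values of -2.52 and 3.10 for Gm11212 and -1.99 and -2.07 for Ccdc162. On slide 1, with 1 array a line, they were -2.24 and 5.03 and -2.39 and -1.38. Background correction by normexp on the median signal kept only the call of Gm11212 between GC-1 and GC-2. Under it Gm11212 differed by -0.28 between F9 and GC-1 (adjusted p = 0.360), and Ccdc162 by 0.09 from F9 and -0.17 from GC-1 (adjusted p = 0.748 for both). The methods' t-test on the same values, adjusted over all probes, lost Gm11212 between F9 and GC-1 (adjusted p = 0.109) and Ccdc162 between GC-1 and GC-2 (adjusted p = 0.0505).

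AK053394 was similar in signal across the lines: 4.08, 3.65 and 4.0 in F9, 3.65, 3.75 and 3.78 in GC-1, and 4.18, 3.74 and 3.38 in GC-2. The arrays of the lines overlapped. The F9 mean of AK053394 (3.91) lay above its GC-1 mean (3.73), although it counted as detected only in GC-1. F9 replicates 2 and 3 lay under their lowest flagged levels of 4.09 and 4.03. GC-1 minus GC-2 was -0.04 on the log2 scale, with a 95% interval from -0.62 to 0.54 (limma, adjusted p = 0.935). F9 minus GC-1 was 0.18, with an interval from -0.40 to 0.76 (adjusted p = 0.630). Its arrays of brain, heart, kidney and testis spanned 2.63 to 3.90.

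**Figure D5:**
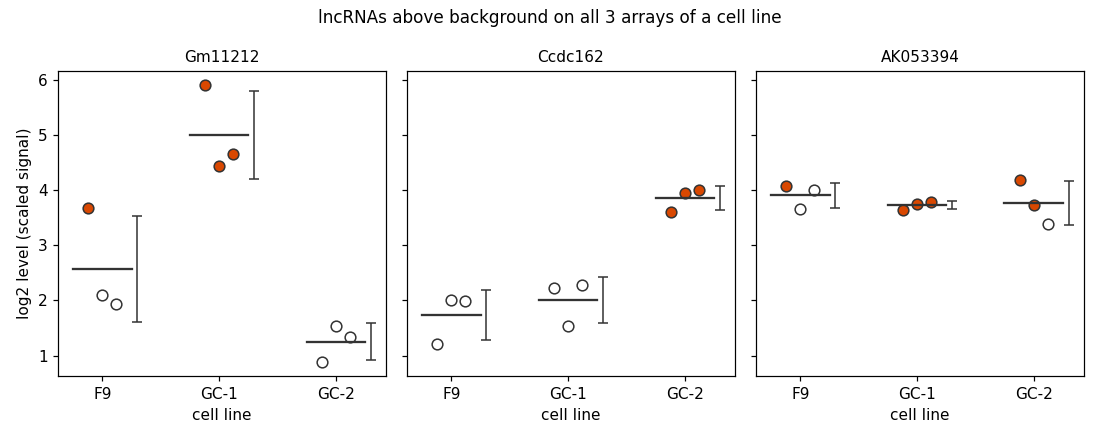
Log2 levels of Gm11212, Ccdc162 and AK053394 on the 3 arrays of F9, GC-1 and GC-2. Filled circles were well above background, open circles were not, horizontal bars are means and error bars are the SD over 3 arrays. Gm11212 is highest in GC-1, Ccdc162 in GC-2, and AK053394 overlaps across the lines.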

How the data were processed

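The deposited files were Agilent Feature Extraction outputs (version 11.5.1.1, per the file headers), 1 per array. The authors extracted processed signal intensities, already background-corrected, and deposited a series matrix with the same intensities, used as an alternative. Log2 levels, spreads and folds were computed from them as the report states, with limma 3.58.1 in R 4.3.3 on the 9 line arrays. limma was tested on simulated data. Groups and replicate numbers came from the titles. The mean signal is not used here, so normexp (offset 50) took the median signal. Members came from the study's supplementary list, by name only. Members and gene groups were chosen with earlier results of these data known. 1 member is not reported here by name and stays in the counts and medians. Every other member was to be named, with full values for the 10 highest and 5 lowest in liver and for those detected in a line, flagged on 2 arrays of another tissue or called between lines. Same-numbered line arrays deviated together from their line means (9 pairs, r 0.13 to 0.54 over 19940 probes, against a median of -0.21 for other pairs). Among the other pairs, those that shared slide 3 were also positive (r 0.09 to 0.37). Those of a replicate 1 with a replicate 2 or 3, on different slides, were negative (r -0.51 to -0.19). For replicate 1, number and slide cannot be told apart. Replicate 1 of each line was on slide 1, replicates 2 and 3 on slide 3. The study states 3 biological replicates. The number of arrays limits the precision. Alternatives were other scalings, filters, blocks, tests and left-out arrays.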

Additional observations from a re-analysis of the deposited data

How the results depend on the processing

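The replicate block, as the slide as a block, changed no call between lines (1, 1 and 2 members). Of the 22 alternatives per comparison, 18, 18 and 19 left the count of called members as it was. Some of these could hardly change it. The series matrix holds the same intensities, and leaving out an array of the line not compared leaves the difference itself unchanged. normexp gave 0, 0 and 1, and turned Ccdc162 in F9 minus GC-2 to 0.0857. The methods' test with Benjamini-Hochberg adjustment gave 0 for F9 against GC-1 and 1 for GC-1 against GC-2. A 5-fold minimum gave 0 for F9 against GC-2 and 1 for GC-1 against GC-2. Without 1 array the counts ran from 1 to 2, from 1 to 2 and stayed at 2: leaving out F9 replicate 1 added Gm12684 against both other lines (adjusted p = 0.0173 and 0.0140), as did slide 3 alone (2 and 2 members), an alternative chosen after seeing the data.

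Detected members were 5 in F9, 14 in GC-1, 14 in GC-2 and 19 in at least 1 line by the weaker flag for a positive and significant signal. On at least 2 of 3 arrays they were 1 in F9, 3 in GC-2 and 5 in all. Above 1 common level (5.54, the highest limit of any array) there were 0 in GC-1, 0 in GC-2 and 0 in all. Without 1 array the counts were 0 to 1 in F9, 2 in GC-1, 1 to 2 in GC-2 and 3 to 4 in all.

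The median liver level of 8.40 became 8.82 with normexp and 8.22 to 8.45 without 1 array. The median log2 bound over the other tissues, 4.18, became 4.48 with the 75th percentile over all probes, 4.45 with quantile normalization and 2.34 with normexp, which left 22 of 43 at least 5-fold. Without 1 array these ranged from 3.99 to 4.37 and from 40 to 42. Over the lines the bound of 4.57 became 4.30, 4.18 and 2.85, and without 1 array it ranged from 4.34 to 4.63, with 42 or 43 members at least 5-fold. With normexp 29 members and with quantile normalization 41 passed 5-fold over the lines.

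Over all probes, the 75th percentile over all probes moved the median F9 minus GC-1 difference from 0.28 to 0.40, with no call among the members changed. With normexp, 56.0% of F9 against GC-1 calls were higher in F9, against 44.8%, and 63.5% of F9 against GC-2 calls, against 47.8%. Between GC-1 and GC-2, 4549 probes were called, 7137 with slide as a block, 9201 by the methods' test unadjusted, 2802 adjusted, 2955 without GC-1 replicate 2, 2961 without GC-1 replicate 3 and 9503 within slide 3. A 5-fold minimum left 4015, 3767 and 1757 of 10995, 10677 and 4549 calls, and slide 3 alone gave 17699 and 17716 for the F9 comparisons. Outside liver most readings were below the detection limit, which sets most bounds.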
